A study of Sus scrofa with 9 samples.

Results

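The miRNAs described here belong to 9 families that are best known from blood. The families miR-451, miR-144 and miR-486 are abundant in red blood cells and their precursors, and the families miR-142, miR-150, miR-223, miR-155, miR-146a and miR-146b are studied mainly in white blood cells. A listed miRNA name belonged to a family when, without its species prefix, it began with the family name, whatever its arm or sequence variant. This rule found 14 of the 1313 names in the table, and 6 of the 14 were listed in all 9 libraries. The families were selected on their levels in these 9 libraries and on the differences between groups, so the differences between groups are given as descriptions and no test of a group difference in level is offered as support.

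Small RNA libraries had been made from pig (Sus scrofa) metaphase II (MII) oocytes, pronuclear (PN) 1-cell embryos and mature sperm, with 3 libraries in each group, all of them labelled as untreated. The MII oocytes came from the follicles of postpubertal slaughterhouse gilts, were matured in vitro and were freed of cumulus cells by vortexing in hyaluronidase. The PN embryos came from in vitro fertilization, and RNA was taken from large pools of oocytes or embryos. The sequenced sperm was fresh purified sperm of adult Large White boars, whereas the semen described for fertilization came from Landrace boars. No source used here says whether the 3 libraries of a group came from separate pools or animals, so SDs and p-values measure the spread between these libraries only. The study looked for RNAs brought into the oocyte by sperm. For each miRNA the 3 groups show whether it was listed in the egg, in the sperm and after their union. The methods describe bovine serum albumin in the sperm washing, fertilization and embryo culture media, and polyvinyl alcohol in the oocyte maturation medium. They also describe fetal bovine serum in the solution that removed cumulus cells from oocytes and embryos. The embryos were in culture for longer than the oocytes. Medium, time in culture and group therefore cannot be told apart.

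As background, miR-144 and miR-451 are cut from a common primary transcript that the factor GATA1 switches on in red cell precursors, and miR-451 is unusual in being matured by the slicing activity of Argonaute 2 instead of by Dicer. The gene of miR-486 lies within the gene of ankyrin 1, a red cell membrane skeleton protein, and miR-486 is also known from muscle. In white cells, miR-142 is found across nearly all blood lineages, miR-223 mainly in granulocytes and monocytes, and miR-150 in mature lymphocytes, while miR-155 is induced in activated B cells, T cells and macrophages. The miRNAs miR-146a and miR-146b share a seed, the bases that pick targets, and both are known for damping inflammatory signalling through TRAF6 and IRAK1. None of these miRNAs is restricted to blood cells, and in bulk samples fewer cells of a type and less RNA per cell cannot be told apart.

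The deposited values were estimated read counts, and levels are given here as CPM, the counts of a name scaled to a library total of 1000000 listed counts. The sperm libraries were the deepest, with totals of 1640492 to 2455102 counts, against 422630 to 771001 for PN embryos and 289183 to 381674 for MII oocytes, so depth and group cannot be told apart. The lowest value of any member above 0 was 5 counts, and a listed 0 may therefore stand for a few reads. A floor of 5 counts corresponds to 13.1 to 17.3 CPM in MII oocytes, 6.49 to 11.8 CPM in PN embryos and 2.04 to 3.05 CPM in sperm. The labels matched the male germ cell miRNAs miR-34b, miR-34c and miR-449, whose summed level was 151499 to 153743 CPM in sperm against 2036 to 2455 CPM in the other groups.

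A RefSeq gene table for Sscrofa11.1, the build that the submitters' processing notes name, held genes for 8 of the 9 families, and only miR-223 had no match. MIR451 lies at chr12:45088808-45088872 and MIR144 at chr12:45088958-45089033, with 85 bases between them, and both fall within the span of ERAL1. MIR486-1 lies at chr17:10758855-10758934 within the span of ANK1. Of the white cell families, MIR142 lies at chr12:34609378-34609457, MIR150-1 at chr6:54580912-54580988, MIR155 at chr13:189138822-189138902, MIR146B at chr14:113446854-113446952 and MIR146A at chr16:63044261-63044338. These 5 genes overlap no other gene span in the table. The table gives no strand, exons or introns.

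All 14 names together took a small share of each library. Their share of the listed reads was 0.571% ± 0.0450 (SD, n = 3) in MII oocytes, 0.635% ± 0.0160 in PN embryos and 0.443% ± 0.0216 in sperm. Most of these reads were of white cell families, with a summed level of 5489 ± 403 CPM in the oocytes, 5542 ± 145 CPM in the embryos and 4226 ± 219 CPM in the sperm libraries. The red cell families summed to 219 ± 47.0 CPM in MII oocytes, 806 ± 17.1 CPM in the embryos and 207 ± 50.2 CPM in the sperm libraries. The red cell sum was thus 3.67-fold higher in PN embryos than in MII oocytes and 3.89-fold higher than in sperm, without overlap between libraries, whereas its ranges in MII oocytes and sperm overlapped. A single family, miR-146a, held 68.2% ± 4.70 of the members' reads in MII oocytes, 54.4% ± 0.341 in PN embryos and 73.6% ± 0.653 in sperm. MII oocyte library 3 was the lowest of its group for miR-451, miR-144, miR-486, miR-142, miR-155 and miR-146a.

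**Figure D1:**
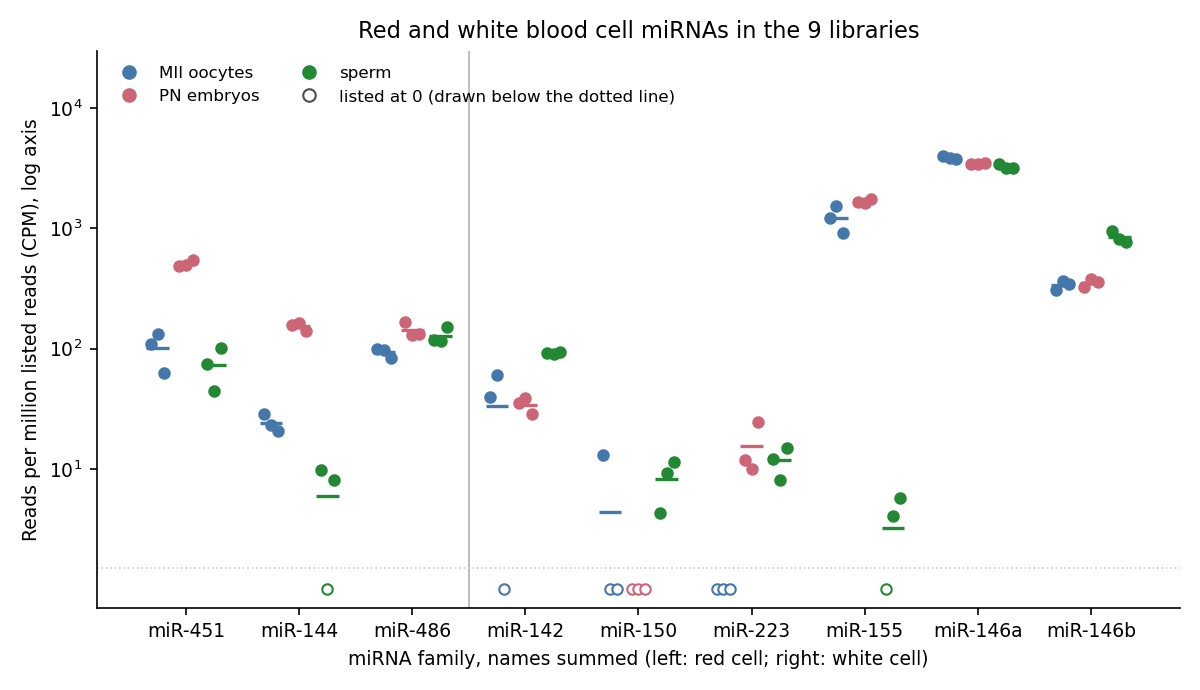
Level of each family in the 9 libraries, in CPM on a log axis (points, libraries; short lines, group means; open points below the dotted line, libraries that list the family at 0). The PN embryo libraries stand above the rest for miR-451 and miR-144, the sperm libraries stand lowest for miR-155, and miR-146a lies between 3182 and 4024 CPM in every library.

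A name was called different between 2 groups at a q value under 0.05 and a log2 fold change of at least 1 in either direction, in edgeR's quasi-likelihood test fitted to the whole table. Of the 14 names, 10 passed the filter on low counts, which kept 587 names in all, and the other 4 could not be called. Between PN embryos and MII oocytes, 2 of these 10 were called, both higher in PN embryos, where 12.9% of all names tested were called, 11.2% as higher and 1.70% as lower. Between sperm and MII oocytes, 5 of the 10 were called, 3 as higher and 2 as lower in sperm, beside 83.0% of all names, 42.2% as higher and 40.7% as lower. Between sperm and PN embryos, 7 of the 10 were called, 3 as higher and 4 as lower in sperm, beside 86.2% of all names, 38.8% as higher and 47.4% as lower. The libraries of the 2 groups did not overlap in CPM for 6, 7 and 9 of the 10 names in these comparisons, beside 39.5%, 81.6% and 92.2% of all names. The contrasts chose the members, and nothing is read from these counts. The comparisons share groups, so their values are given side by side.

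The median log2 fold change of the 10 names was 0.33 for PN embryos over MII oocytes, 0.02 for sperm over MII oocytes and -0.11 for sperm over PN embryos. Over all names tested the medians were 0.08, 0.00 and -0.52.

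**Figure D2:**
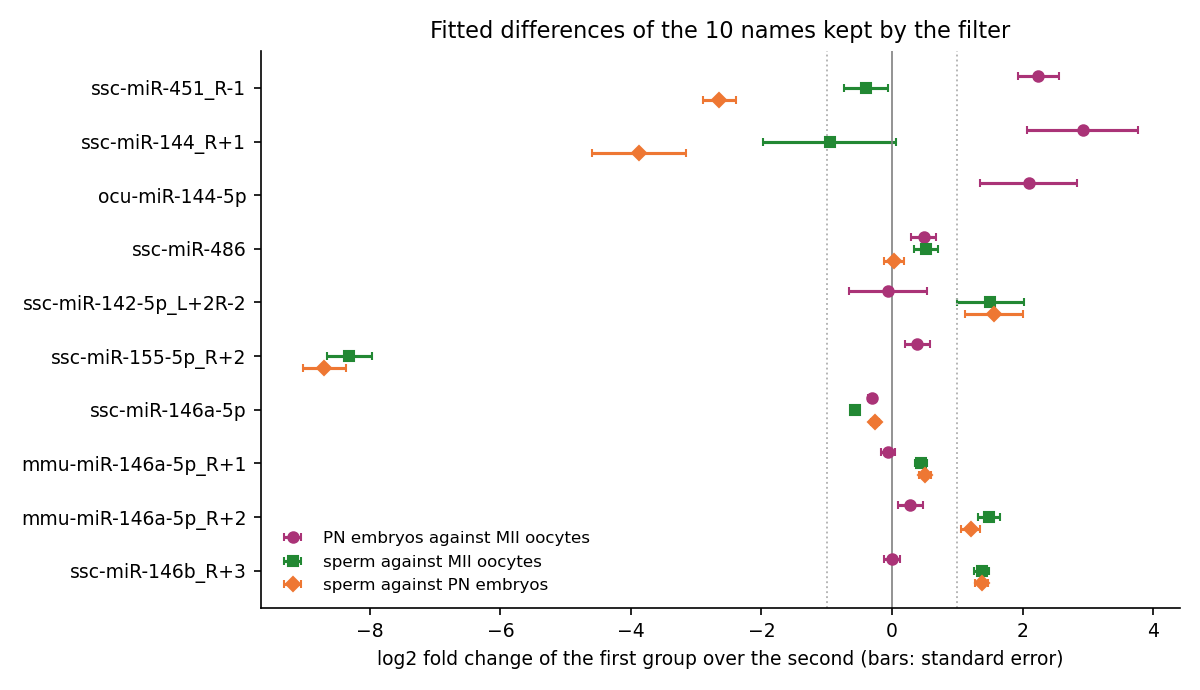
Fitted log2 fold changes of the 10 names kept by the filter in the 3 comparisons (points, edgeR estimates; bars, standard errors; dotted lines, a log2 fold change of 1 in either direction). The estimates for miR-451 and miR-144 lie to the right for PN embryos against MII oocytes and to the left for sperm against PN embryos, and those of miR-155 in sperm lie beyond -8; the name ocu-miR-144-5p is drawn for 1 comparison only, since sperm lists it at 0.

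Of the red cell miRNAs, miR-451 was the most abundant in PN embryos. It was listed under a single name, ssc-miR-451_R-1, with 42, 40 and 18 counts in the MII oocyte libraries, 204, 344 and 424 in the PN embryo libraries and 122, 77 and 249 in the sperm libraries. In CPM these were 110, 134 and 62.2 in MII oocytes, 483, 495 and 550 in PN embryos and 74.4, 44.4 and 101 in sperm. Every PN embryo library was above all others, the lowest of them 3.61-fold above the highest MII oocyte library and 4.76-fold above the highest sperm library. The group means were 102 ± 36.4, 509 ± 35.9 and 73.4 ± 28.5 CPM (SD, n = 3), and MII oocytes and sperm overlapped. The fitted log2 fold change (± SE) was 2.24 ± 0.31 for PN embryos over MII oocytes and -2.65 ± 0.26 for sperm over PN embryos, both called, while that for sperm over MII oocytes was -0.40 ± 0.34.

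The neighbouring miR-144 followed the same order of groups at a lower level. Summed over its names, its level was 28.8, 23.4 and 20.7 CPM in the MII oocyte libraries, 159, 164 and 140 CPM in the PN embryo libraries and 9.75, 0 and 8.15 CPM in the sperm libraries. The 3 groups did not overlap, with a mean 6.34-fold higher in PN embryos than in MII oocytes, but the MII oocyte values rest on 11, 7 and 6 counts and the sperm values on 16, 0 and 20.

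The miR-144 hairpin was listed under 2 names. The name ssc-miR-144_R+1, which gives no arm and is taken here as the 3p arm, had 5, 7 and 0 counts in MII oocytes, 38, 80 and 70 in PN embryos and 16, 0 and 20 in sperm. The name ocu-miR-144-5p had 6, 0 and 6 counts in MII oocytes, 29, 34 and 38 in PN embryos and 0 in all 3 sperm libraries. The first was called higher in PN embryos than in MII oocytes (log2 fold change 2.92 ± 0.85) and lower in sperm than in PN embryos (-3.87 ± 0.72). Its call between PN embryos and MII oocytes was lost without any 1 of the MII oocyte libraries 1 and 3, the PN embryo libraries 1 and 2 and the sperm library 1, with log2 fold changes of 2.39 to 3.12, and also under a replicate block (2.97). The value for sperm over PN embryos was -3.18 without sperm library 2, and still called. For PN embryos over MII oocytes the 5p name stood at 2.09 ± 0.74 and was not called. It was called lower in sperm than in PN embryos, a fit against a group listed at 0 throughout. Against the floor of 5 counts per library, its level in PN embryos, 55.6 ± 11.3 CPM, was at least 20.9-fold higher than in sperm. In PN embryos the 5p name took 43.3%, 29.8% and 35.2% of the reads of the hairpin, a share that the counts in the other groups were too few to set beside it. The 5p name was also called lower in sperm than in MII oocytes, although both groups had libraries at 0. This call rests on 6 counts in each of 2 libraries, and on PN embryo counts that took the name through the filter. With only sperm and MII oocytes fitted, neither name of miR-144 was tested. In that fit 8 of the 14 names were tested and 4 were called, beside 467 of all 551 names tested.

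The balance of the neighbours was not itself used to choose the members, but it follows from levels that were. The p-values of shares therefore describe these libraries only and are no support for a difference. The share of miR-144 among the reads of miR-144 and miR-451 was 20.8%, 14.9% and 25.0% in MII oocytes, 24.7%, 24.9% and 20.3% in PN embryos and 11.6%, 0% and 7.43% in sperm. In MII oocytes the 95% Wilson intervals of these shares reached from 7.41% to 44.9%, on 24 to 53 reads of the pair per library. The shares of 20.2% ± 5.07 in MII oocytes and 23.3% ± 2.60 in PN embryos differed by 3.09 percentage points (two-sided exact permutation test, p = 0.7, adjusted p = 1). This is less than the SD between MII oocyte libraries and more than that between PN embryo libraries, and the ranges of the 2 groups overlapped. In sperm the share was 6.34% ± 5.87, with differences of -13.9 points from MII oocytes and -17.0 points from PN embryos, all 3 sperm libraries being lower, and p = 0.1 in both exact permutation tests, the smallest p that 3 libraries against 3 can give (adjusted p = 0.2 over 12 tests). In the sperm library with 0 of 77 reads the interval reached 4.75%. These intervals cover counting error only, since reads were not counted by molecule. They take a listed 0 as it stands, although for either name of miR-144 it may stand for a few reads under the floor of 5 counts.

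The third red cell family, miR-486, varied far less between groups. It was listed as ssc-miR-486 at 99.6, 96.9 and 83.0 CPM in the oocytes, 154, 129 and 132 CPM in the embryos and 118, 115 and 150 CPM in the sperm libraries. All PN embryo and sperm libraries were above the MII oocyte libraries, and PN embryos and sperm overlapped. The log2 fold changes were 0.48 ± 0.19 for PN embryos over MII oocytes, 0.52 ± 0.18 for sperm over MII oocytes and 0.03 ± 0.16 for sperm over PN embryos, none of them called. The last of these turned to -0.10 when libraries were scaled by their totals alone. The other arm of the hairpin, cfa-miR-486-3p_L-1R+1, was listed once, at 5 counts in PN embryo library 1. The name ssc-miR-486 gives no arm and is taken here as the 5p arm. On that reading the 5p arm took 100% of the reads of the hairpin in 8 of 9 libraries and 92.9% in PN embryo library 1. With the 3p name at the floor once and 24 to 38 reads of the hairpin in the MII oocyte libraries, where the lowest 95% Wilson bound was 86.2%, the exact permutation tests of this share (p = 1 in each comparison) say nothing about the arms.

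**Figure D3:**
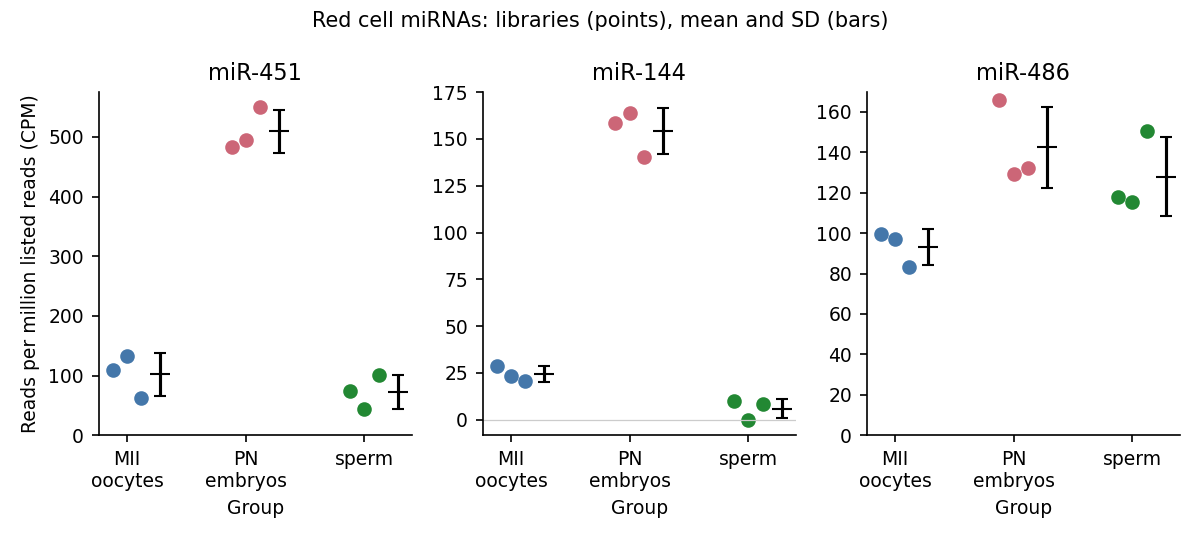
Levels of the 3 red cell families in CPM (points, libraries; bars beside them, mean and SD, n = 3), each panel with its own linear axis. The PN embryo libraries of miR-451 and miR-144 stand clear of the other groups, whereas those of miR-486 overlap the sperm libraries.

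Among the white cell families, miR-155 showed the widest gap between groups. Its single name, ssc-miR-155-5p_R+2, stood at 1229, 1547 and 916 CPM in the oocytes and at 1663, 1625 and 1769 CPM in the embryos, but at 0, 4.04 and 5.70 CPM in sperm. The sperm values were 0, 7 and 14 counts in the 3 deepest libraries of the study, against 265 to 1364 counts in the shallower MII oocyte and PN embryo libraries. The mean level was 379-fold higher in MII oocytes and 519-fold higher in PN embryos than in sperm, ratios that rest on these few sperm counts. All PN embryo libraries lay above the MII oocyte libraries, with means of 1686 ± 74.5 and 1231 ± 315 CPM, yet the lowest PN value was only 1.05-fold above the highest MII value and the log2 fold change of 0.38 ± 0.19 was not called. The log2 fold changes of sperm were -8.31 ± 0.34 over MII oocytes and -8.70 ± 0.33 over PN embryos, both called. They were -7.62 and -7.99 without sperm library 1, which lists the name at 0, and -9.06 and -9.46 without sperm library 3.

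The level of miR-142 went the other way. Its single name, ssc-miR-142-5p_L+2R-2, was at 39.3, 60.2 and 0 CPM in the oocytes, 35.5, 38.8 and 28.5 CPM in the embryos and 91.4, 91.1 and 93.7 CPM in sperm. The sperm libraries were above all others and close together, at 92.1 ± 1.39 CPM, while MII oocytes ranged from 0 to 18 counts. Sperm was called higher than MII oocytes (log2 fold change 1.51 ± 0.51) and PN embryos (1.56 ± 0.45), and the value between PN embryos and MII oocytes was -0.06 ± 0.60. The call against MII oocytes was lost with the replicate number as a block (log2 fold change 1.67), and its value was 2.27 without MII oocyte library 2 and 1.11 without MII oocyte library 3, called in both.

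For miR-223 and miR-150, known from granulocytes and lymphocytes, the counts were near the limit of the table. The name ssc-miR-223_R+2 had 0 counts in all 3 MII oocyte libraries, 5, 7 and 19 counts in PN embryos and 20, 14 and 37 counts in sperm, or 15.5 ± 7.96 CPM in the embryos and 11.8 ± 3.52 CPM in the sperm libraries. Both means lie under the mean floor of 15.7 CPM in MII oocytes, so a difference from MII oocytes was not detectable at this depth. PN embryos and sperm overlapped. Under a filter of at least 10 counts in 3 libraries the name was tested and called higher in both than in MII oocytes. The same held with no filter on low counts, and without any 1 of the MII oocyte libraries or PN embryo library 1. Each of these is a fit against a group listed at 0 throughout. The name ssc-miR-150 had 5, 0 and 0 counts in MII oocytes, 0 in all 3 PN embryo libraries and 7, 16 and 28 counts in sperm. Its mean in sperm, 8.30 ± 3.66 CPM, was under the mean floor of 8.50 CPM in PN embryos, so a difference from PN embryos was not detectable at this depth either. With no filter on low counts the name was tested and called higher in sperm than in PN embryos, again against a group listed at 0 throughout.

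The most abundant family, miR-146a, was nearly level across the groups. Summed over its 3 names it stood at 4024, 3840 and 3780 CPM in the oocytes, 3427, 3400 and 3528 CPM in the embryos and 3423, 3182 and 3188 CPM in the sperm libraries. The MII oocyte libraries were above all others, by 1.12-fold in the mean over PN embryos and 1.19-fold over sperm, and PN embryos and sperm overlapped. The related miR-146b was listed mainly as ssc-miR-146b_R+3, a name that gives no arm and is taken here as the 5p arm. This name stood at 309, 368 and 342 CPM in the oocytes, 323, 381 and 359 CPM in the embryos and 945, 821 and 767 CPM in the sperm libraries. All sperm libraries were above the rest, with log2 fold changes of 1.38 ± 0.11 over MII oocytes and 1.37 ± 0.10 over PN embryos, both called. MII oocytes and PN embryos overlapped, with a log2 fold change of 0.00 ± 0.12 that took either sign under other settings. The name eca-miR-146b-3p_R+1_1ss10GA had 5 counts in each sperm library and 0 elsewhere, under the floor in CPM of the other groups.

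The balance of the pair that shares a seed was read in the same way. Its shares follow from the levels of both miRNAs, known when the families were selected, so their p-values are no support for a difference. The share of miR-146a among the 5p reads of miR-146a and miR-146b was 92.9%, 91.3% and 91.7% in MII oocytes, 91.4%, 89.9% and 90.8% in PN embryos and 78.4%, 79.5% and 80.6% in sperm. Sperm was thus the group with relatively more miR-146b, at a miR-146a share of 79.5% ± 1.11 against 91.9% ± 0.829 in MII oocytes and 90.7% ± 0.736 in PN embryos. The differences of sperm from them were -12.5 and -11.2 percentage points, with all 3 sperm libraries lower, each with the smallest p that the exact permutation test can give here (p = 0.1, adjusted p = 0.2). PN embryos minus MII oocytes gave a difference of -1.25 points (exact permutation p = 0.2, adjusted p = 0.343). These shares rest on 1192 to 9710 reads per library. The 5p arm of miR-146b took 100% of the reads of its hairpin in MII oocytes and PN embryos and 99.7% ± 0.0435 in sperm (exact permutation p = 0.1 against each), a gap that the 99 to 277 reads of the shallower libraries could not have shown, their lowest 95% Wilson bound being 96.3%.

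The forms of miR-146a were read from its 3 names. The names mmu-miR-146a-5p_R+1 and mmu-miR-146a-5p_R+2 would, by the usual naming of variants, be longer at the 3′ end than the reference by 1 and 2 bases, a meaning that the sources used here do not define. The name ssc-miR-146a-5p without a suffix stood at 3216 ± 140 CPM in MII oocytes, 2729 ± 101 in PN embryos and 2085 ± 15.6 in sperm, without overlap and without a call at the threshold. The R+2 name stood at 224 ± 28.6, 281 ± 48.6 and 600 ± 105 CPM and was called higher in sperm than in MII oocytes (log2 fold change 1.48 ± 0.17) and in PN embryos (1.20 ± 0.15). The latter call was lost when identical rows of a name were taken once (log2 fold change 0.95). The R+1 name stood at 441 ± 22.5, 442 ± 39.2 and 578 ± 50.5 CPM and was not called. Both R+ names together held 16.1%, 18.4% and 17.0% of miR-146a reads in MII oocytes, 18.2%, 23.1% and 21.5% in PN embryos and 39.6%, 34.1% and 34.4% in sperm. Sperm libraries did not overlap with the others in this share, which was chosen after its values were seen and is therefore given without a test.

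**Figure D4:**
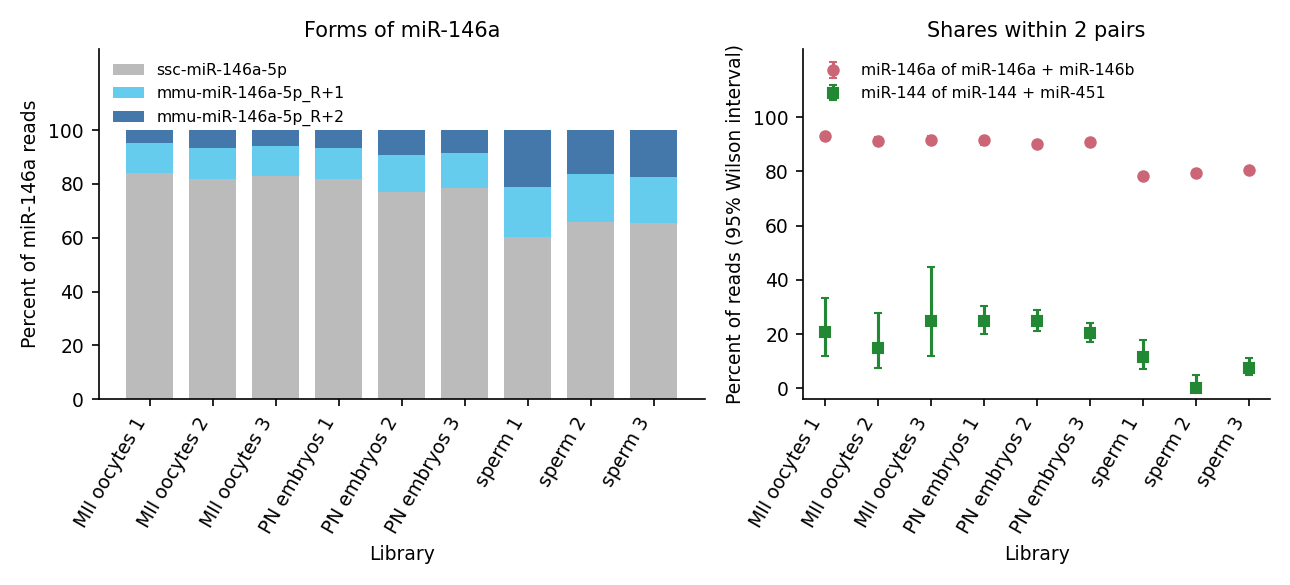
Left, percent of miR-146a reads under each of its 3 names in the 9 libraries; right, percent of reads of miR-146a within the miR-146a and miR-146b pair and of miR-144 within the miR-144 and miR-451 pair (points, libraries; bars, 95% Wilson intervals of counting error). The R+1 and R+2 names take more of miR-146a in the sperm libraries, and both pair shares are lower there.

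Within a group the order of the families differed, as far as reads of different miRNAs can be compared. The 3 highest were miR-146a, miR-155 and miR-146b in MII oocytes, miR-146a, miR-155 and miR-451 in PN embryos, and miR-146a, miR-146b and miR-486 in sperm, each above the next without overlap. Further down, miR-451 and miR-486 overlapped in MII oocytes, as did miR-142 and miR-144, and miR-144 and miR-486 overlapped in PN embryos. In sperm, miR-142 overlapped with miR-451, and the libraries of miR-223, miR-150, miR-144 and miR-155 overlapped in turn.

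In 4 of the 10 names tested, every PN embryo library was above every library of both other groups, beside 18.7% of all names tested. These were the names of miR-451, both arms of miR-144 and miR-155.

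Other miRNAs known from blood cells, but also made by many other cells, were taken from a list of 17 miRNAs with 33 names. Between PN embryos and MII oocytes, 0 of the 26 names of this list that were tested were called in edgeR's quasi-likelihood test, beside the 12.9% of all names called. Without the fold threshold 7 of the 26 had a q value under 0.05 in this test, 13 had an unadjusted p under 0.05, DESeq2 called 3, and the median log2 fold change was 0.05. Between sperm and MII oocytes, 21 of the 26 were called, 15 as higher and 6 as lower, beside 83.0% of all names. Between sperm and PN embryos 21 were called, 14 as higher and 7 as lower, beside 86.2% of all names. Of its 14 red cell names tested, 9 were called higher in sperm and 0 lower against MII oocytes (42.2% of all names higher). Against PN embryos 9 were higher and 1 lower (38.8% of all names higher). The 12 white cell names were 6 higher and 6 lower, then 5 and 6. The red cell names of this list summed to 94443 to 96306 CPM in sperm, 24000 to 26475 CPM in MII oocytes and 25005 to 25210 CPM in PN embryos. The red cell families instead summed highest in PN embryos. The platelet and endothelial miR-126 was at 0 in all 3 MII oocyte libraries, at 7.19 to 23.7 CPM in PN embryos and at 0 to 7.31 CPM in sperm, and neither of its names passed the filter. The floor in MII oocytes, 13.1 to 17.3 CPM, lies above the lowest PN embryo value, so the 0 in MII oocytes may stand for a few reads. The lymphocyte miR-342, as ssc-miR-342_R-2, stood at 355 CPM in the mean of MII oocytes, 505 CPM in the embryos and 2585 CPM in the sperm libraries. The highest of the remaining names, ssc-miR-21-5p_R+1, stood at 77842, 83579 and 23683 CPM.

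Markers of other cells were read beside these values. The follicle cell miRNAs miR-143, miR-145, miR-224 and miR-383 summed to 217 to 259 CPM in the oocytes, 240 to 279 CPM in the embryos and 679 to 761 CPM in sperm. The higher sum in sperm did not hold for most of the 4 names. Sperm was called higher for 1 and lower for 3 against MII oocytes (median log2 fold change -2.39) and higher for 1 and lower for 2 against PN embryos (median -2.36). Epithelial miRNAs of the miR-200 group with miR-203 and miR-375, 7 in all, summed to 1383 to 1782 CPM in the oocytes, 1429 to 1653 CPM in the embryos and 16074 to 16547 CPM in sperm. Of their 9 names tested, 7 were called higher and 1 lower in sperm, both against MII oocytes and against PN embryos. Of all names tested, 42.2% and 38.8% were called higher in sperm in these comparisons. The muscle miRNAs miR-1, miR-133 and miR-206 summed to 96.8 to 246 CPM in MII oocytes, 0 in PN embryos and 12.6 to 17.1 CPM in sperm, whereas miR-486 was higher in PN embryos than in MII oocytes in every library. The part of other cells in the levels of the red and white cell families was not tested.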

How the data were processed

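Small RNA libraries of 3 MII oocyte, 3 PN embryo and 3 sperm samples were compared, grouped by their titles, and 0 value columns were left unassigned. The authors deposited a table of estimated counts of reads per small RNA name, marked raw and not normalized, made after adapter ligation, reverse transcription, PCR and gel selection. The aligner, the miRNA caller and the count filter are not given in the sources used here. Rows of the same name were summed. CPM values were computed here from library totals. The members, gene lists and tests were chosen with earlier results of these data known. Values per library were given for each family and for names with at least 10 counts in 3 or more libraries, and for miR-126, miR-342 and the most abundant other name of the blood list.

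Counts were rounded and fitted for all 9 libraries with edgeR 4.0.16 in R 4.3.3 (TMM factors, filterByExpr by group with a minimum count of 10, glmQLFit and glmQLFTest, Benjamini-Hochberg adjustment). The fit was tested on simulated data. Shares were compared by two-sided exact permutation tests (scipy 1.17.1), where at least 20 reads per library stood behind each share, and the tests were adjusted over 12. The 5p share of miR-144 fell short of this and was not tested. Alternatives were DESeq2 1.42.0, its size factors, library totals, other filters, 2 groups only, a replicate block, rows taken once, names summed to arms and leaving out each library. No 2 libraries of a group were alike within sampling noise (chi-square per degree of freedom 2.20 to 12.7). Sequences of the members were not used here.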

Additional observations from a re-analysis of the deposited data

How the results depend on the processing

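Of 30 fold changes of the 10 names, 22 kept their direction and call under every one of 17 alternatives that gave a value. Between PN embryos and MII oocytes, 2 names were called, against 1 (miR-451) with the replicate block and 1 to 3 when a library was left out (1 without PN embryo library 2 or sperm library 1). An equal count did not always mean the same names. Without MII oocyte library 1 or 3 or PN embryo library 1, the 2 names called were those of miR-451 and miR-223, and miR-144 was not called. Between sperm and MII oocytes, 5 names were called, 8 with no fold threshold, 4 with the replicate block and 5 to 6 with a library left out. With only these 2 groups fitted, 4 were called and the names of miR-144 were not tested. Between sperm and PN embryos 7 were called, also with the block and with any library left out. Same-numbered libraries showed little shared deviation (mean correlations of -0.02, -0.08 and 0.03, with 0, 0 and 2 libraries closest to their own number). The numbers were not used as pairs in the main fit, though so few libraries cannot exclude a pairing.

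Values near 0 changed sign. For PN embryos over MII oocytes, mmu-miR-146a-5p_R+1 went from -0.06 to 0.010 with library totals (-0.10 to 0.10 with a library left out), and miR-142 went from -0.06 to 0.011 with library totals and 0.067 with the block (-0.59 to 0.56 with a library left out). For miR-146b the value of 0.00 became -0.0010 (DESeq2 size factors), -0.0054 (DESeq2), -0.0058 (no filter), -0.030 (at least 10 counts in 3 libraries), -0.029 (2 groups only), -0.0013 (block) and -0.010 (rows taken once), and -0.047 to 0.075 with a library left out. For miR-486 in sperm over PN embryos, 0.03 became -0.10 with library totals and -0.22 with rows taken once (-0.13 to 0.33 with a library left out). The causes were not tested. The median of all names in sperm over PN embryos was -0.52, against -0.32 under the size factors of DESeq2 and -0.66 under library totals. No share changed direction. Depth limits miR-150, miR-223 and miR-144 in MII oocytes, at 0 to 11 counts per library.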

Other observations

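The ratio of miR-451 to miR-23a, known from plasma work as an index of red cell lysis, was chosen after its values were seen. It was 0.272, 0.331 and 0.167 in the MII oocyte libraries, 0.697, 0.651 and 0.820 in the PN embryo libraries and 0.0771, 0.0487 and 0.107 in the sperm libraries. The groups did not overlap, and miR-23a itself stood at 394 ± 18.0, 708 ± 46.7 and 943 ± 26.6 CPM (SD, n = 3). In every library miR-451 was below miR-23a. The ratio is built on the miR-451 counts already described, and red cell lysis was not tested.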
